A study of Mus musculus with 6 samples.

Results

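The synaptonemal complex genes are 7 genes that encode the protein scaffold joining paired chromosomes in meiosis, and they were taken by symbol from the deposited tables, which list 23253 genes in all. The members are Sycp1, Sycp2, Sycp3, Syce1, Syce2, Syce3 and Tex12, and every one of them was listed in all 6 libraries and passed the filter on low counts. The libraries hold poly(A)-selected RNA of whole testis from C57BL/6 mice aged 8 months. In 3 of them the genotype label reads control and in 3 it reads L3mbtl2 cKO, a conditional knockout of a Polycomb group protein. The cells in which the gene was deleted, the promoter that drove deletion, the alleles carried by controls and whether each library is 1 animal are not stated in the sources at hand. P-values therefore measure only how far these libraries differ from one another, which may be technical. Groups follow the sample titles and genotype labels. The table names give the genotypes the other way round, and L3mbtl2 itself was higher in all 3 libraries with the cKO label, so each library is named by its label and every direction below would turn if the labels were exchanged.

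In meiotic prophase, homologous chromosomes are held together along their length by the synaptonemal complex, a ladder that forms in spermatocytes and is taken apart before the first division. SYCP2 and SYCP3 build the lateral elements along each chromosome axis. SYCP1 forms the transverse filaments that bridge the axes, and SYCE1, SYCE2, SYCE3 and TEX12 form the central element down the middle. Male mice lacking these proteins fail to complete synapsis and are sterile.

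The members lie on 7 different chromosomes (positions from RefSeq, GRCm38.p6, the assembly also called mm10). Sycp1 (Entrez 20957) occupies chromosome 3, 102818499 to 102936100, with 33 exons and 2979 coding bases in its GENCODE M21 transcript. Sycp2 (320558) occupies chromosome 2, 178345295 to 178407776, with 44 exons, and Sycp3 (20962) chromosome 10, 88459587 to 88473236, with 9. Syce1 (74075) is on chromosome 7, 140777229 to 140787854, with 13 exons, and Syce2 (71846) on chromosome 8, 84872111 to 84887446, with 5. Syce3 (75459), the smallest member with 3 exons and 264 coding bases, is on chromosome 15, 89390174 to 89410503, the chromosome that also carries L3mbtl2 (81663889 to 81688315). Tex12 (66654) is on chromosome 9, 50557148 to 50561268, with 5 exons. Of the 1139 bases in the GENCODE transcript of Sycp3, 535 are shared with exons of Chpt1 on the opposite strand. Chpt1 was at 60.16, 63.96 and 57.72 FPKM under the control label and 71.33, 66.33 and 74.48 under the cKO label. Whether the libraries kept strand is not stated, so reads of Sycp3 and Chpt1 cannot be told apart in that stretch; no other member shared exonic bases with a neighbour.

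L3MBTL2 belongs to PRC1.6, a Polycomb complex whose MGA and MAX subunits recognise the E-box CACGTG and whose E2F6 and DP1 subunits recognise E2F sites. The promoter windows of the members, 250 bases before to 50 after each transcript start (RefSeq, GRCm38.p6), were therefore searched on both strands for CACGTG, which is its own reverse complement, and for TTCCCGC or GCGGGAA; these motifs do not overlap in the members' windows. Of 9 windows for the 7 genes, 4 held CACGTG, those of Sycp1, Sycp3, Tex12 and Syce2, and 3 held the E2F letters, those of Sycp3, Tex12 and Syce2. Among all 32851 promoter windows, 7.15% held CACGTG and 4.6% the E2F letters. Both strings contain CG, and these shares are not matched for base composition. The member windows with a match held 15 to 33 CG pairs and were 56.7 to 69.3% GC. The medians over all windows were 7 CG pairs and 52.7% GC. The windows of Syce2 overlap each other, as do those of Syce3. The windows with a match are shown first, and then that of Syce1, the member with the largest fitted difference, which had no match. Each is written 5′ to 3′ on the gene's strand with matches in capitals.

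Sycp3, chr10:88459337-88459636, plus strand: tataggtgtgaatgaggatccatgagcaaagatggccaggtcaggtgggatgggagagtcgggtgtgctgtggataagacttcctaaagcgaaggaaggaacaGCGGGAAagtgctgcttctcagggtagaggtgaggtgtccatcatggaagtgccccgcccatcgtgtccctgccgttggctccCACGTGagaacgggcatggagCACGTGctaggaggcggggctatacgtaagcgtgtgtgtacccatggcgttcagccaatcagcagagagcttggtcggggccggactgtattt

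Tex12, chr9:50561219-50561518, minus strand: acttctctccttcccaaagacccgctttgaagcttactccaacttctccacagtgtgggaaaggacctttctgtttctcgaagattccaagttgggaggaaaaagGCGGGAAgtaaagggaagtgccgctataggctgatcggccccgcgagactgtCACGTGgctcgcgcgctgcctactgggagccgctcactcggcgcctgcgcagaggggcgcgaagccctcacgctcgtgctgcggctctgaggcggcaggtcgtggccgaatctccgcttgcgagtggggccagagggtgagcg

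Syce2, chr8:84872008-84872307, plus strand: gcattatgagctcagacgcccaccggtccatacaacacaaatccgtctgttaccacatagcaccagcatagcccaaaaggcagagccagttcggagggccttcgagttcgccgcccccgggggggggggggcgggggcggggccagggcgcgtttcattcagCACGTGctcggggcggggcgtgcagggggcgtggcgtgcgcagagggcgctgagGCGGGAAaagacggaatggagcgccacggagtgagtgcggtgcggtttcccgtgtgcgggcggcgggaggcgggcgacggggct

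Sycp1, chr3:102936051-102936350, minus strand: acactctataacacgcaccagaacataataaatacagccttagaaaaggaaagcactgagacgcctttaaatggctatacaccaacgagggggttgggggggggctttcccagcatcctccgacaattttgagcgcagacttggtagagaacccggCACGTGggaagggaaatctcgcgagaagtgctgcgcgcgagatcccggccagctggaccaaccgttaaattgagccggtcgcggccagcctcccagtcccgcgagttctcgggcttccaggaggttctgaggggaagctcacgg

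Syce1, chr7:140787805-140788104, minus strand: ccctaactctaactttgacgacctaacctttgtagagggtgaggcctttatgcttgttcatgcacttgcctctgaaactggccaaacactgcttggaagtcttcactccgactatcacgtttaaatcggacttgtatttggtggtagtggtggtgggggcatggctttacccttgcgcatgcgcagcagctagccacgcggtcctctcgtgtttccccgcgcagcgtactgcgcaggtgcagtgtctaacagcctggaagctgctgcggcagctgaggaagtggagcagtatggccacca

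Counted from the transcript start, where the base before it is -1, the E-box letters began at -94 in Sycp1, -93 in Tex12, -88 in Syce2 and at both -64 and -43 in Sycp3. The E2F letters began at -147 in Sycp3, -145 in Tex12 and -34 in Syce2. The windows of Sycp2, Syce1 and Syce3 and the upstream window of Syce2 held neither string. A match is a description of letters, and none of these libraries measures binding.

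The libraries were similar in depth and unequal in their levels of somatic markers. Expected counts summed to 17689205 to 18083291 under the control label and 18604191 to 18822050 under the cKO label. L3mbtl2 stood at 658, 705 and 673 expected counts under the control label and 1030, 1105 and 1031 under the cKO label (log2 fold change 0.67, SE 0.10, adjusted p = 0.166 in edgeR's quasi-likelihood test with Benjamini-Hochberg adjustment, 0.000497 in DESeq2), the opposite of a loss. In FPKM, which is scaled by length, L3mbtl2 was at 14.04, 14.89 and 13.59 against 15.87, 17.09 and 16.03. The group means of L3mbtl2 differed 1.15 times in FPKM and 1.56 times in expected counts. Of 15 PRC1.6 genes, L3mbtl2 among them, 3 had a positive and 12 a negative fitted difference, with a median of -0.15, where 49.5% of all genes were positive. edgeR called 0 of them. At an unadjusted p of 0.05, 2 were higher and 3 lower, beside 8.85% and 18.8% of all genes, and DESeq2 called 1 higher and 1 lower, beside 0.405% and 7.67%. Mean log2 CPM (counts relative to the TMM-scaled library size) of 10 Leydig markers, the testosterone-making cells between the tubules, was 7.15, 6.20 and 8.21 under the control label and 5.65 to 5.98 under the cKO label. For 19 markers of Sertoli cells, which nurse germ cells inside the tubule, it was 5.72, 5.19 and 6.45 against 4.86 to 4.94. The library labelled control replicate 3 thus held the most somatic RNA and replicate 2 the least of its group. In bulk tissue, fewer cells of a type and less RNA per cell cannot be told apart.

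All 7 synaptonemal complex genes had a positive fitted difference, higher under the cKO label by 1.04 to 1.26 times in CPM, although that of Tex12 turned negative by library totals and on FPKM, and none passed the test. The median log2 fold change of the members was 0.23, beside -0.005 over the 18269 genes tested. edgeR's quasi-likelihood test called 0 of the 7 at an adjusted p of 0.05, where it called 0% of all genes in either direction, and adjusted p ran from 0.172 for Syce1 to 0.842 for Tex12. At an unadjusted p of 0.05, Syce1 and Syce2 were higher, with 8.85% of all genes higher by that rule. DESeq2 called 0 of the 7 higher, with 0.405% of all genes called higher and 7.67% lower. On TMM-scaled CPM the groups did not overlap for Syce1, Syce2 and Syce3, and 18.0% of all genes had no overlap with the labelled cKO group higher.

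**Figure D1:**
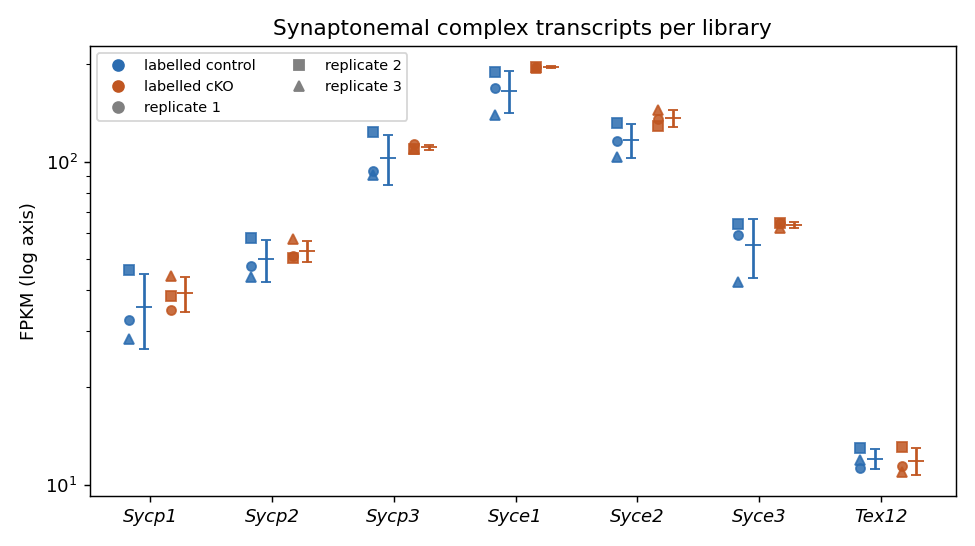
FPKM of each member on a log axis, with a point per library (blue, labelled control; orange, labelled cKO; the symbol gives the replicate) and the mean ± SD of 3 libraries beside them. Syce1 is the highest member, at 139.9 to 197 FPKM, and Tex12 the lowest, at 10.98 to 13.1; the labelled control libraries spread more widely than the labelled cKO ones for every member except Tex12.

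Among the axis and bridge proteins, the groups overlapped. Sycp3, the main component of the lateral element, was at 93.6, 123 and 91.3 FPKM under the control label and 113, 109.7 and 109 under the cKO label. The library labelled control replicate 2 was the highest of the 6 and the other labelled controls the lowest. The log2 fold change was 0.20 (SE 0.14, adjusted p = 0.349 in edgeR). Reads of Chpt1, which was higher under the cKO label, may enter the values of Sycp3, and their part was not tested. Sycp2, which binds SYCP3 and anchors it to the axis, was at 47.4, 58.1 and 43.95 FPKM against 51.2, 50.2 and 57.6. Here too the library labelled control replicate 2 was the highest of all in FPKM, though not in CPM (log2 fold change 0.18, SE 0.14, adjusted p = 0.375). Sycp1, the transverse filament gene, was at 32.35, 46.1 and 28.3 FPKM against 34.7, 38.4 and 44.1. It had the widest spread of the members, with its highest library 1.73 times its lowest in CPM (log2 fold change 0.23, SE 0.20, adjusted p = 0.439).

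The central element genes Syce1, Syce2 and Syce3 had the largest differences, from 1.23 to 1.26 times by group means of CPM. Syce1, which stabilises SYCP1 at the midline, was at 169, 189.5 and 139.9 FPKM under the control label and 197, 197 and 195 under the cKO label. All 3 libraries labelled cKO lay above all 3 labelled control, and they lay within 0.02 log2 CPM of each other, while the labelled controls spanned 0.51. The log2 fold change was 0.33 (SE 0.13, adjusted p = 0.172), and the exact permutation test gave p = 0.1 (two-sided), the smallest that 3 libraries against 3 allow. Syce2, which builds fibres with TEX12, was at 116, 131 and 103 FPKM against 135, 129 and 145. Its groups overlapped in FPKM, since the library labelled control replicate 2 exceeded the library labelled cKO replicate 2, but not in TMM-scaled CPM, at 95.3, 114 and 85.45 against 122, 115 and 129 (log2 fold change 0.31, SE 0.12, adjusted p = 0.173). Syce3, needed for the other central element proteins to load, was at 59.4, 64.0 and 42.3 FPKM against 64.5, 64.8 and 62.2. In CPM the groups stood apart by a margin far below the spread of the labelled controls, with 27.56 in the library labelled control replicate 2 and 27.64 in the lowest labelled cKO library (log2 fold change 0.30, SE 0.18, adjusted p = 0.264).

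Tex12, which encodes the partner of SYCE2, had the smallest fitted difference of the members. It was at 11.3, 12.97 and 11.9 FPKM under the control label and 11.4, 13.1 and 10.98 under the cKO label, and the groups overlapped throughout. The log2 fold change was 0.05 (SE 0.17, adjusted p = 0.842) by TMM, and it turned negative by library totals (-0.043) and on FPKM (-0.027 on log2(FPKM + 1)). With 155 to 185 expected counts per library it was also the most thinly read member. Its share of the complex, which sets it against the other members, is given with the shares.

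The size of these differences depended on which labelled control libraries were included. For 6 of the 7 members, in CPM, the library labelled control replicate 3 was the lowest of all 6 libraries, Tex12 being the exception. In CPM the library labelled control replicate 2 lay above all 3 libraries labelled cKO for Sycp1, Sycp3 and Tex12, within their range for Sycp2 and below it for Syce1, Syce2 and Syce3. In the fit without it, edgeR called 4 of the 7 members higher, Sycp1 (log2 fold change 0.505, adjusted p = 0.0298), Sycp3 (0.399, 0.0213), Syce1 (0.48, 0.025) and Syce2 (0.444, 0.025), and in that fit 11.0% of all genes were called higher and 20.7% lower. Without the library labelled control replicate 3 the member median was 0.11. In that fit edgeR called 0 of the 7 members, where it called 2 of all 18507 genes higher and 0 lower. The log2 fold changes were then 0.214 for Syce1, 0.218 for Syce2 and 0.074 for Sycp1.

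**Figure D2:**
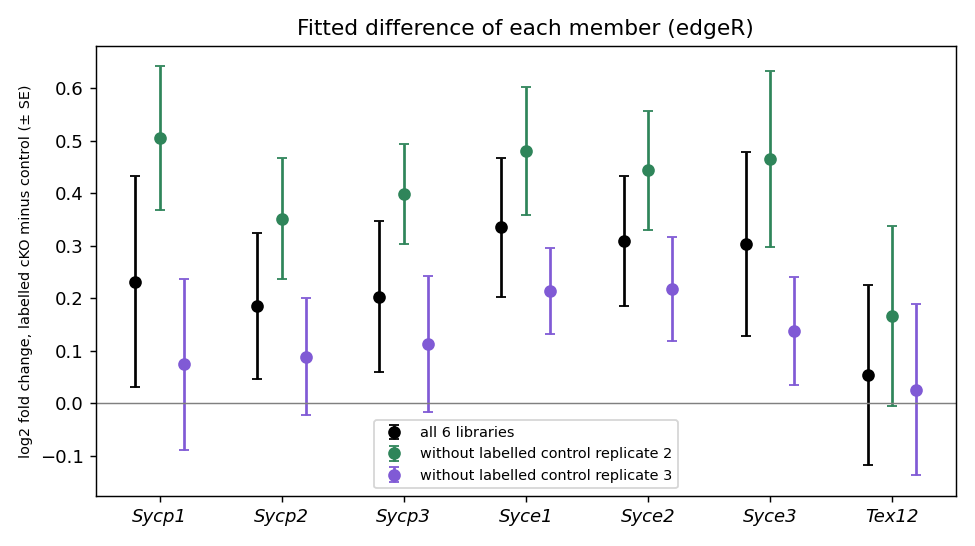
Log2 fold change of each member (labelled cKO minus labelled control, ± SE, edgeR) with all 6 libraries and without either of 2 labelled control libraries. Each point is highest without replicate 2 (0.166 to 0.505) and lowest without replicate 3 (0.026 to 0.218), and Tex12 lies nearest zero with all 6 libraries, at 0.05.

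The proportions of the members to each other were then compared, since a share within the complex does not depend on sequencing depth. By FPKM, which is per length, the order of levels was Syce1, Syce2, Sycp3, Syce3, Sycp2, Sycp1 and Tex12 in 5 of 6 libraries. In the library labelled control replicate 3, Syce3 (42.3 FPKM) stood just below Sycp2 (43.95), so the order of those neighbours was not the same in every library. Whether their levels differ was not tested. The other neighbours kept their order in every library. Syce1 made up 30.9% ± 0.921 of the summed FPKM of the 7 genes under the control label and 32.1% ± 0.783 under the cKO label (SD, n = 3 each; exact permutation p = 0.2, adjusted over the 7 genes 0.525). Sycp3 made up 19.1% ± 1.19 against 18.1% ± 0.551, and Sycp1 6.54% ± 0.721 against 6.39% ± 0.68. Tex12 had the smallest share, at 2.26% ± 0.276 against 1.94% ± 0.216, and the largest relative difference between groups, with a log2 ratio of -0.222 (exact permutation p = 0.3, adjusted 0.525). The groups overlapped for all 7 shares, the lowest exact p was 0.2, and no share differed beyond the spread between libraries. Summed FPKM ran from 461 in the library labelled control replicate 3 to 625.5 in replicate 2, while the share of Syce1 ran from 30.3 to 32.7%.

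**Figure D3:**
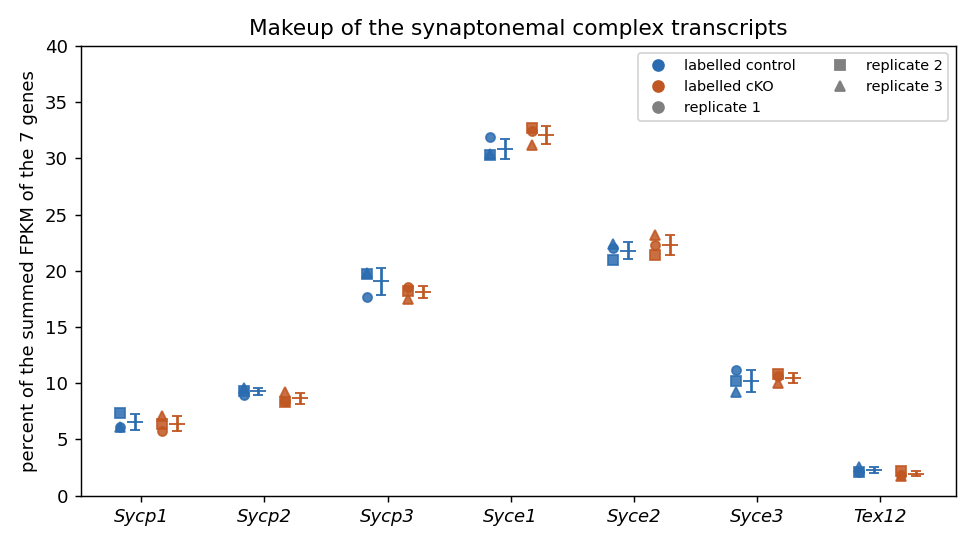
Percent of the summed FPKM of the 7 genes taken by each member, with a point per library and the mean ± SD of 3 libraries per group. Shares of labelled control and labelled cKO libraries overlap for every member, with Syce1 at 30.3 to 32.7% and Tex12 at 1.76 to 2.58%.

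The deposited length of a gene is a mean over a gene's transcripts, so it moves when their mix moves. Syce1 and Sycp3 have a single transcript in the tables, with fixed lengths of 1462 and 1132 bases, so only the other 5 members could differ. Sycp1 ranged from 3525 to 3587 bases, Sycp2 from 5945 to 5960, Syce2 from 911 to 919 and Syce3 from 481 to 483. Tex12 varied most, from 801 to 836 bases, which is 4.32% of its mean. For these 5 the groups overlapped, Syce2 only just, with 914.55 bases as the lowest value under the control label and 914.56 as the highest under the cKO label. The groups did not overlap for L3mbtl2, at 2652 to 2838 bases under the control label and 3489 to 3498 under the cKO label.

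The other genes of meiotic prophase gave a divided picture in 5 lists of 50 genes, of which 46 were listed and tested. edgeR called 0 of the 46 and DESeq2 called 0; 34 had a positive and 12 a negative fitted difference, with a median of 0.11, and 49.5% of all genes were positive. At an unadjusted p of 0.05, 4 were higher and 1 lower, where 8.85% and 18.8% of all genes were. In CPM the groups did not overlap for 11 genes higher and 6 lower under the cKO label, where 18.0% and 19.8% of all genes did not. Of the genes named from these lists, those without overlap were Stag3, Rec8, Psmc3ip, Spo11, Brme1, Kash5 and Sun1, higher, and Fkbp6, Six6os1 and Stra8, lower. Leaving out the library labelled control replicate 2, edgeR called 10 of the 46, all higher, where it called 11.0% of all genes higher; of the genes named here these were Stag3, Smc1b, Psma8, Psmc3ip, Spo11, Hsf2bp and Spdya. Leaving out replicate 3 of that group instead, edgeR called 0 of the 46, where it called 2 of all 18507 genes higher and 0 lower. The medians of the axis, telomere and meiotic entry lists were then 0.13, 0.15 and -0.02.

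Axis genes lay on the same side as the members. All 6 had positive differences, with a median of 0.19. Stag3, a subunit of meiotic cohesin, was at 105, 117 and 82.4 FPKM under the control label and 119, 119.95 and 126 under the cKO label, (log2 fold change 0.36, SE 0.15, adjusted p = 0.174). Its log2 fold change was 0.218 with the library labelled control replicate 3 left out and 0.51 (adjusted p = 0.0314 in edgeR) with replicate 2 left out. Its partner Rec8 was at 29.9 ± 5.99 against 35.9 ± 1.96 FPKM and Smc1b at 50.5 ± 8.59 against 57.3 ± 3.92 (SD, n = 3 each). Hormad1, which marks axes that have not yet synapsed, was at 53.9 ± 4.78 against 54.7 ± 3.10. The 7 genes that tie telomeres to the nuclear envelope were all positive too, with a median of 0.27: the cyclin-like activator Spdya was at 41.6 ± 6.47 against 48.4 ± 3.79 FPKM, the linker Kash5 at 37.8 ± 5.68 against 44.6 ± 2.28 and its envelope partner Sun1 at 29.5 ± 3.13 against 32.1 ± 1.35. Cdk2, at 27.7 ± 1.26 against 27.2 ± 0.80, had a log2 fold change of 0.08 by TMM and of -0.02 by library totals.

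Genes of synapsis partners, recombination and meiotic entry were mixed. Six6os1, which encodes a further central element protein, had a negative fitted difference, where the 4 central element members had positive ones. Of those, Tex12 was at 0.05 (SE 0.17) and turned negative by library totals and on FPKM. It was at 9.90, 11.5 and 12.04 FPKM under the control label and 9.13, 8.57 and 9.37 under the cKO label. All 3 libraries labelled cKO lay below all 3 labelled control (log2 fold change -0.33, SE 0.13, adjusted p = 0.171), and 19.8% of all genes had no overlap in that direction. Fkbp6, a chaperone required in spermatocytes, was at 32.0 ± 0.815 against 27.8 ± 1.39 FPKM, Skp1a at 105 ± 10.9 against 99.2 ± 4.92 (log2 fold change 0.08, or -0.022 by library totals) and the spermatocyte proteasome subunit Psma8 at 50.6 ± 10.7 against 59.9 ± 1.13. Of 23 recombination genes 15 were positive and 8 negative, with a median of 0.12. Psmc3ip, a cofactor of strand exchange, was at 75.7 ± 9.84 against 87.0 ± 1.45 FPKM, and Spo11, which makes the breaks that start recombination, at 30.2 ± 2.46 against 34.4 ± 1.58. Brme1 was at 26.7 ± 4.04 against 30.0 ± 1.52 and Hsf2bp, its binding partner, at 14.4 ± 2.35 against 15.8 ± 0.717. Among entry genes, Stra8, the retinoic acid target that starts meiosis, was at 7.27, 8.19 and 8.13 FPKM against 5.74, 5.55 and 6.19 (log2 fold change -0.32, SE 0.16, adjusted p = 0.217). Meioc was at 31.3 ± 3.86 against 34.3 ± 1.63, while Dazl (40.3 ± 4.94 against 39.3 ± 1.85) and Ythdc2 (5.34 ± 0.483 against 5.15 ± 0.333) had log2 fold changes of 0.06 and 0.05 by TMM and of -0.037 and -0.052 by library totals.

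**Figure D4:**
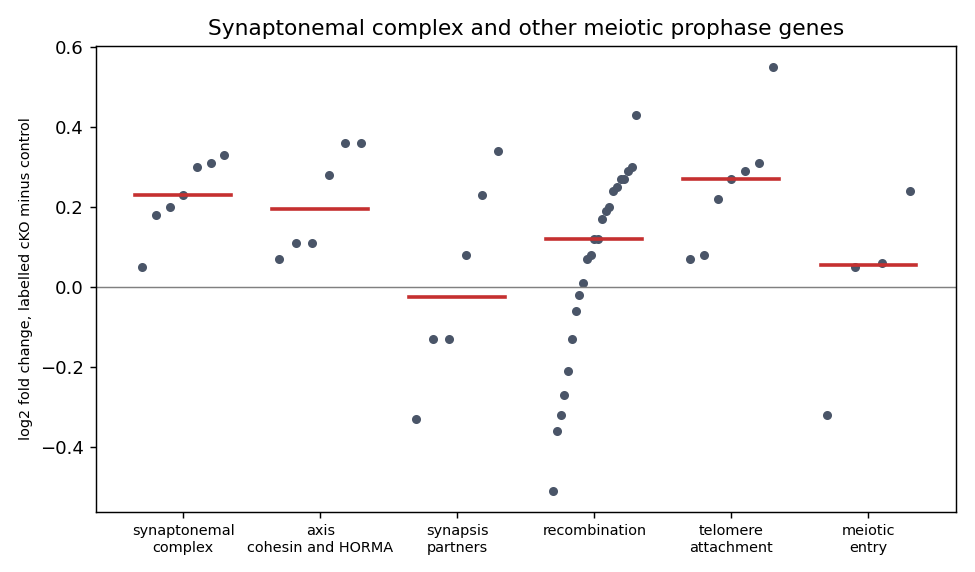
Log2 fold change (labelled cKO minus labelled control, edgeR) of each tested gene in the synaptonemal complex list and 5 other meiotic prophase lists; a point is a gene and the red bar the list's median. The medians of the synaptonemal complex, axis and telomere lists are 0.23, 0.19 and 0.27, and those of synapsis partners, recombination and meiotic entry are -0.02, 0.12 and 0.05.

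The level of the synaptonemal complex genes was set beside that of other spermatocyte genes in each library. The mean log2 CPM of the 7 members was 6.21, 6.55 and 6.04 under the control label and 6.50, 6.51 and 6.55 under the cKO label. That of 11 spermatocyte markers was 7.62, 7.80 and 7.34 against 7.95, 7.89 and 7.93, with the germ cell lactate dehydrogenase Ldhc at 1860 ± 266 against 2140 ± 47.7 FPKM and the RNA-binding protein gene Ybx2 at 1130 ± 197 against 1350 ± 62.8. The difference of the members from those markers was -1.41, -1.25 and -1.29 against -1.46, -1.39 and -1.39 log2 units, so relative to the markers the members were lower under the cKO label by a mean of -0.09. That difference was within the spread between libraries (exact permutation p = 0.3, two-sided), the groups overlapping in the library labelled control replicate 1.

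Markers of other testis cells also stood at different levels in the groups. The 12 spermatid markers were all positive (median 0.36), with the protamines Prm1 at 6400 ± 1180 against 7820 ± 406 and Prm2 at 6370 ± 1130 against 7690 ± 457 FPKM. Of 14 spermatogonial markers 10 were negative (median -0.44), among them Uchl1 at 46.3 ± 8.33 against 32.2 ± 2.45. The other 4 were positive, among them Dmrtb1, the most abundant of the list, at 268 ± 49.5 against 321 ± 21.9. All 19 Sertoli markers were negative (median -1.0; Clu at 930 ± 489 against 400 ± 9.26, Cst12 at 201 ± 99.2 against 93.4 ± 3.28), as were all 10 Leydig markers (median -1.69; Insl3 at 3840 ± 3120 against 1020 ± 79.8, Cyp17a1 at 319 ± 208 against 98.5 ± 13.0). The 10 macrophage markers were negative (median -1.42; Lyz2 at 17.02 to 90.5 against 15.9 to 19.1, Cd74 at 23.6 ± 17.4 against 13.8 ± 2.54) and so were 9 of 10 myoid and endothelial markers (median -0.61; Myl9 at 55.9 ± 21.2 against 30.0 ± 4.28, Acta2 at 27.5 ± 10.5 against 15.6 ± 1.71). edgeR called 0 members of these lists and of the spermatocyte list. At an unadjusted p of 0.05 it found 5 spermatocyte and 9 spermatid markers higher, all 19 Sertoli, all 10 Leydig, 8 macrophage and 4 myoid and endothelial markers lower, and 1 spermatogonial marker higher and 7 lower, where 8.85% of all genes were higher and 18.8% lower. DESeq2 called 1 spermatocyte and 1 spermatid marker higher, and 3 spermatogonial, 17 Sertoli, 4 Leydig, 5 macrophage and 2 myoid and endothelial markers lower, where it called 0.405% of all genes higher and 7.67% lower. The sizes depended on the same labelled control libraries. With replicate 3 left out, the medians were -0.57 for Sertoli, -0.98 for Leydig, -0.74 for macrophage, -0.37 for myoid and endothelial, 0.23 for spermatid and 0.20 for spermatocyte markers. In that fit edgeR called 0 members of these lists, where it called 2 of all 18507 genes higher and 0 lower. With replicate 2 left out, edgeR called all 19 Sertoli, all 10 Leydig, all 10 macrophage, 5 myoid and endothelial and 6 spermatogonial markers lower and 9 spermatid and 6 spermatocyte markers higher, beside 20.7% and 11.0% of all genes. The part of cell makeup in the differences of the synaptonemal complex genes was not tested.

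**Figure D5:**
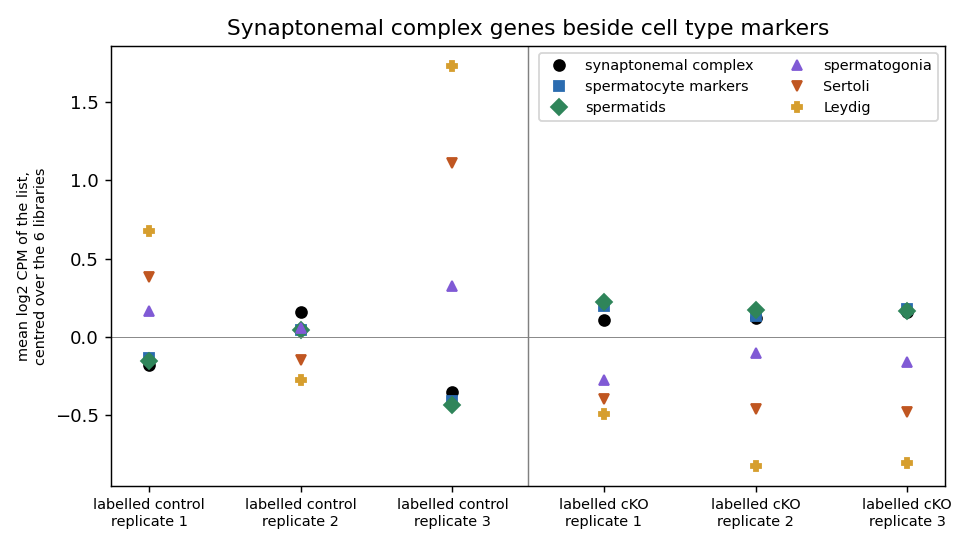
Mean log2 CPM of each marker list in each library, centred over the 6 libraries, with a vertical line between the labelled groups. The synaptonemal complex genes (black), like spermatocyte and spermatid markers, are lowest in the library labelled control replicate 3. There the Leydig and Sertoli markers are highest (8.21 and 6.45 log2 CPM before centring). In replicate 2 of that group the members (6.55) reach the labelled cKO libraries (6.50 to 6.55). The spermatocyte (7.80 against 7.89 to 7.95) and spermatid markers (9.64 against 9.76 to 9.82) stay below them.

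Within the complex the members varied together to different degrees. Over the 6 libraries Pearson's r of log2 CPM was 0.98 for Sycp1 with Sycp2 and 0.98 for Syce1 with Syce3, and 0.45 to 0.77 for Tex12 with the other members. These values share library, depth and the 1 labelled control library that stands apart. The genes outside the complex with a mean FPKM of at least 10 whose log2 CPM most resembled the members' mean pattern over the 6 libraries were Fbxl13 (r = 0.999), Ube2u (0.999), Cep83 (0.998), Ccdc178 (0.998), Proca1 (0.997) and Arfgef1 (0.997). Of the 6138 genes compared, 27.9% had an r of at least 0.9, so likeness over 6 libraries is common here.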

How the data were processed

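Poly(A)-selected testis RNA was sequenced in 6 libraries (3 labelled control, 3 labelled cKO). Per the submitters' processing notes the tools were bcl2fastq 2.16, HISAT2 2.0.4, Bowtie2 2.2.5, RSEM and DESeq2 with build mm10; their roles and order are not given in the sources used here. The authors deposited an expected count per gene, which per the file headers is an estimate of its reads without normalization. They also deposited an FPKM per gene, scaled for length and depth, and a length, per the file headers. The lowest FPKM in the tables is 0.01, and 0 was used for any gene that a table does not list.

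Expected counts were rounded and fitted over all genes with edgeR 4.0.16 (R 4.3.3; filterByExpr minimum count 10; TMM; quasi-likelihood F-test; Benjamini-Hochberg at 0.05). The SE is the absolute log2 fold change divided by the square root of F. The script was tested on simulated data with larger fold changes and less variation between libraries than here. That test does not show whether differences of the members' size would be found. Log2 CPM used a prior count of 2. Shares and the contrast with spermatocyte markers used exact permutation tests, which with 3 libraries against 3 cannot give a two-sided p below 0.1. Alternatives were DESeq2 1.42.0 and its size factors, library totals, limma 3.58.1 on log2(FPKM + 1) and log2(FPKM + 0.1), 2 other filters, a replicate block and leaving out each library.

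The members and gene lists were chosen with earlier results of these data known. Genes named are L3mbtl2, the members, the 4 most abundant genes of each other meiotic list, the 2 most abundant of each cell type list and the 6 most alike in pattern; Chpt1 is named for its overlap.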

Additional observations from a re-analysis of the deposited data

How the results depend on the processing

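All 6 members other than Tex12 kept a positive log2 fold change under every alternative run, and Tex12 turned negative by library totals (-0.043), on log2(FPKM + 1) (-0.027) and log2(FPKM + 0.1) (-0.029), and without the library labelled control replicate 1 (-0.007) or cKO replicate 2 (-0.002). Library totals moved the median of all genes to -0.104. Leaving out 1 library in turn gave 0.074 to 0.505 for Sycp1, 0.089 to 0.352 for Sycp2, 0.113 to 0.399 for Sycp3, 0.214 to 0.48 for Syce1, 0.218 to 0.444 for Syce2, 0.138 to 0.466 for Syce3, -0.007 to 0.166 for Tex12, 0.641 to 0.733 for L3mbtl2 and 0.113 to 0.444 for the median of the members. L3mbtl2 was at 0.692 in DESeq2 (adjusted p = 0.000497) but at 0.192 and 0.203 in limma on FPKM with pseudocounts of 1 and 0.1. Genes called over the whole table numbered 0 in edgeR, 1436 in DESeq2, 1 in limma at either pseudocount and 0 to 5900 with 1 library left out (5900 without the library labelled control replicate 2). In the other meiotic lists, members called ran from 0 to 10 with 1 library left out, and list medians from 0.132 to 0.437 (axis), 0.063 to 0.208 (recombination), -0.059 to 0.019 (synapsis partners), 0.155 to 0.369 (telomere) and -0.024 to 0.173 (meiotic entry). By library totals the recombination median was 0.016 and that of synapsis partners -0.125, and the latter was -0.138 and -0.144 on FPKM with pseudocounts of 1 and 0.1. The log2 ratio of shares ran from -0.109 to 0.056 for Sycp1 and -0.037 to 0.109 for Syce3 with 1 library left out (main values -0.033 and 0.038), and the other 5 shares kept their sign, as did the contrast with spermatocyte markers. Among other named genes, the direction turned for Skp1a (-0.022, -0.084 and -0.084), Cdk2 (-0.02, -0.024 and -0.025), Dazl (-0.037, -0.03 and -0.031), Ythdc2 (-0.052, -0.043 and -0.049) and Arfgef1 (-0.012, -0.01 and -0.011) by library totals and on FPKM with pseudocounts of 1 and 0.1, and without the library labelled control replicate 3 for Dazl, Ythdc2 and Cd74, whose values with 1 library left out ran from -0.01 to 0.205, -0.037 to 0.141 and -1.024 to 0.068. The cause was not tested. Same-numbered libraries did not deviate together (r = 0.043, -0.007 and -0.039), and differently numbered ones gave -0.066 to 0.074. Such values cannot exclude that the numbers mark pairs, and the labels do not say. With a replicate block edgeR called 0 genes and the members ran from 0.057 (Tex12) to 0.349 (Syce1). Of the members, Tex12 rests on the fewest expected counts, 155 to 185 per library.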
